A study of Mus musculus with 44 samples.

Results

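The genes described here encode the subunits of the mitochondrial respiratory chain and of ATP synthase. They were taken by symbol: every row whose symbol begins with Ndufa, Ndufb, Ndufc, Ndufs, Ndufv, Uqcr, Cox4, Cox5, Cox6, Cox7, Cox8 or Atp5, together with Sdha, Sdhb, Sdhc, Sdhd, Cyc1 and Cycs. This gave 80 of 8218 genes in the table of cells sorted from spinal cord, and 86 of 12335 genes in the table of cultured cells, 87 symbols in all, of which 79 were in both. The prefixes also took 2 and 4 complex I assembly factors (Ndufaf genes), and Atp5sl, Atp5s and Cox4nb, which encode no subunit, so that 77 and 79 symbols stood for subunits or cytochrome c. RNA sequencing covered 44 libraries from C57BL/6 mice. In the first experiment, a contusion of 200 kdyn was made at T12 of the spinal cord and cells were sorted as microglia at time 0 (3 libraries) and at 1 h, 16 h, day 1, day 3 and day 7 (2 libraries each), and as monocytes at 16 h, day 1, day 3 and day 7 (2 each). All of these libraries, time 0 included, carry the injury as their treatment label. In the second, bone marrow macrophages raised in M-CSF and microglia taken from primary glial cultures of newborn mice were sampled at time 0 and after 1, 3, 6, 16 and 20 h with TGFb1 at 100 ng/ml, with 2 libraries per group except 1 for macrophages at 6 h. The TGFb1 dose is recorded for all cultured libraries, time 0 included. No untreated library of a later time was analysed here, so time in culture and TGFb1 cannot be told apart. The labels do not state that the libraries of a group are from different animals or dishes, and every p-value reflects the spread among these libraries alone.

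The respiratory chain sits in the inner mitochondrial membrane. Complex I oxidises NADH and complex II, which is also the succinate dehydrogenase of the citric acid cycle, oxidises succinate. Complex III passes the electrons to cytochrome c and complex IV to oxygen, and ATP synthase, often called complex V, uses the proton gradient built up by the pumping complexes to make ATP. In macrophages the balance between this route and glycolysis is known to shift with activation, and several complex IV subunits have tissue-restricted isoforms.

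Nuclear genes of the chain are textbook targets of the transcription factors NRF1, GABP (of the ETS family) and YY1, so their promoters were searched for simple forms of these motifs. Promoter sequences of 300 bases, from 250 before to 50 after the gene start, came from RefSeq on GRCm38.p6 and were found for 68 of the 80 and 72 of the 86 symbols. On either strand, an NRF1 form (10 bases with 1 open position) stood in 17 of 72 promoters of the cultured set (23.6%), against 10.8% of the 9761 promoters of all genes in that table and 4.78% of the 27025 promoters of the reference. For AAGATGGCG (a YY1 form) the shares were 7 of 72 (9.72%), 3.30% and 1.49%, and for CCGGAAG (an ETS form) they were 16 of 72 (22.2%), 18.5% and 9.12%. Matches to different motifs did not overlap in these promoters. The promoters of 3 genes that the results turn on are shown with motif matches in capitals: Ndufs6, which was higher in monocytes and in cultured macrophages, Cox6a1, which was higher in cultured macrophages, and Ndufa4, which was lower in them. They lie at chr5:115348909-115349208 (Cox6a1), chr13:73328433-73328732 (Ndufs6) and chr6:11907401-11907700 (Ndufa4), all on the minus strand, and read 5′ to 3′ along the gene.
Cox6a1: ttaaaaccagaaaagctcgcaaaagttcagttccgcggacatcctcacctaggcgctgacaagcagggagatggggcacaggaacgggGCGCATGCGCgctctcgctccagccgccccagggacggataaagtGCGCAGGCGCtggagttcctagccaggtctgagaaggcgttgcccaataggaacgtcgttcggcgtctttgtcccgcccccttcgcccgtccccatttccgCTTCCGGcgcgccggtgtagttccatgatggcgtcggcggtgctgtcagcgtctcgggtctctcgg
Ndufs6: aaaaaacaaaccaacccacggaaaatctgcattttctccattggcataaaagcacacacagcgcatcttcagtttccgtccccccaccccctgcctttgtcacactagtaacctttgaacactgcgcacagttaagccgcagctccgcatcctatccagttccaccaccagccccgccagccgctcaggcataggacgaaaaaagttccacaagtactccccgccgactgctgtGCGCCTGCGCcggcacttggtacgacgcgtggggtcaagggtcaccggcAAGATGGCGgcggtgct
Ndufa4: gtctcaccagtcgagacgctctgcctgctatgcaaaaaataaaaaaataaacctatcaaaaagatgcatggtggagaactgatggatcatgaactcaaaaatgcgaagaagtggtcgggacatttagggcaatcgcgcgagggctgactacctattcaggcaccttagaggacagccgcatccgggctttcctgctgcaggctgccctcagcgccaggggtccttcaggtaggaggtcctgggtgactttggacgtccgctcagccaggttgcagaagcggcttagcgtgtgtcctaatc
The Cox6a1 window holds the NRF1 form at positions -162 and -117 and the ETS form at -16 from the gene start. The Ndufs6 window holds the NRF1 form at -16 and the YY1 form at 34. None of these letters is in the Ndufa4 window, which says nothing about the factors themselves.

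The values are a signal that the authors scaled per library, in which exactly 1 stands for no read. The value of 1 read could be found in every library, and it put the in vivo libraries at 31459 to 187973 reads for microglia and 133911 to 731693 for monocytes, and the cultures at 1172368 to 2249291 reads. In the shallow microglia libraries a median of 8 of the 80 genes had no read, against 0 in monocytes. None of 13 mitochondrial DNA genes on a fixed list was in either table, so only nuclear subunits were measured. For 13 of the 80 genes, among them Cycs, Atp5g1, Atp5g2, Uqcrb and Cox7c, most low values in the cord table were fractions of a read, and their values are held as uncertain. Only values up to 20 reads were checked. In culture these 13 genes had no value that low, so they were not checked there and their culture values are held as uncertain too. Whether reads were divided between gene copies was not tested. The sorted microglia carried 4.33% to 22.8% of their signal in neutrophil marker genes, against 0.136% to 0.566% in monocytes, while the share of microglia markers was 0.158% to 1.31% against 0.0270% to 0.358%. Monocyte markers took 0.541% to 1.61% in the sorted microglia and 1.55% to 2.24% in monocytes. In the sorted microglia their median, 1.10%, was above that of the microglia markers, 0.338%. The marker lists hold different genes, so these shares do not count cells. In bulk libraries fewer cells of a type and less RNA per cell cannot be told apart. In culture, microglia markers took 1.10% to 1.44% of the signal in microglia and 0.305% to 0.502% in macrophages, and astrocyte markers 0.0102% to 0.0120% and 0.000856% to 0.00242%.

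Summed over all 80 genes, the respiratory chain took a larger share of the RNA in monocytes than in microglia of the injured cord. The 8 monocyte libraries lay between 1.45% and 1.83% of the library signal (median 1.67%). The 13 microglia libraries lay between 0.802% and 1.41% (median 1.09%), and the ranges did not overlap. At the 4 shared times the monocyte mean was 1.60 times the microglia mean. The SD of 0.271 for this ratio was combined from the SDs among single libraries and is not an error of the means. Complexes I, IV and V each showed the same order with no overlap at the shared times: complex V took 0.361% to 0.568% in monocytes and 0.152% to 0.331% in microglia. Complexes II and III overlapped, complex II with 0.0577% to 0.0887% against 0.0428% to 0.0775%. Over all 13 microglia libraries only complex V stayed apart. Microglia 1 h replicate 2 reached 0.475% for complex I and 0.425% for complex IV, where the lowest monocyte libraries were at 0.448% and 0.344%. The summed share was also taken of the signal without the 50 genes of highest mean. It was then 1.80% to 2.24% in monocytes and 1.14% to 1.67% in microglia at the shared times, a ratio of 1.43 with no overlap. Over all 13 microglia libraries the ranges then overlapped, with a 1 h library at 2.10% and a time 0 library level with the lowest monocyte library at 1.80%. The neutrophil share given above also differed between the cell types, and its part in the difference of the summed share was not tested. Within a cell type, microglia stood at 0.956% to 1.18% at time 0 and 0.802% to 1.09% at day 7, and monocytes at 1.63% to 1.83% at 16 h and 1.62% to 1.81% at day 7.

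**Figure D1:**
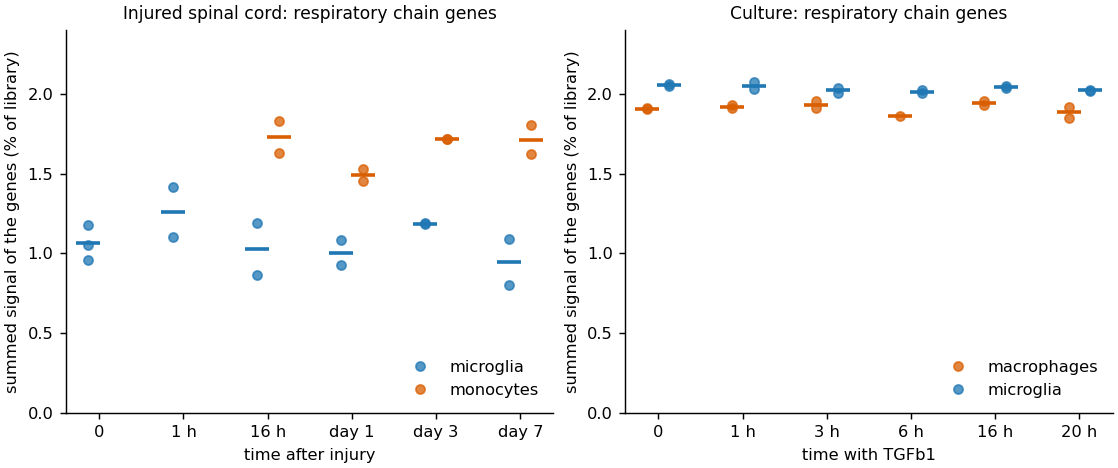
Summed signal of the respiratory chain genes as a percentage of each library's total (vertical axis) against time after injury or with TGFb1 (horizontal axis); points are libraries and short lines are group means. In the injured cord all monocyte libraries lie above all microglia libraries, at 1.45% or more against 1.41% or less, while in culture microglia lie slightly above macrophages, at 2.00% or more against 1.96% or less.

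In culture the order was the other way round and the gap small. The 12 microglia libraries lay between 2.00% and 2.07% and the 11 macrophage libraries between 1.85% and 1.96%, without overlap, so that macrophages stood at 0.940 times microglia (SD 0.0191, combined in the same way from single libraries). Complex I also had no overlap, with 0.617% to 0.653% in microglia and 0.540% to 0.603% in macrophages. Complex II went the other way in its means, 0.103% in macrophages and 0.0926% in microglia, with overlapping libraries. These ranges take in all TGFb1 times. Macrophages stood at 1.91% and 1.91% at 0 h and at 1.85% and 1.92% at 20 h. Microglia stood at 2.06% and 2.05% at 0 h and at 2.02% and 2.03% at 20 h. The 2 tables were scaled separately, so these percentages are not set against those from the cord.

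Gene by gene, monocytes and microglia sorted from the injured cord were compared over the 4 shared times with limma on log2(value + 1), and a gene was called at a Benjamini-Hochberg adjusted p under 0.05 over all genes of the table. Of the 80 genes, 8 were higher in monocytes and 0 were lower, while across all 8218 genes 7.57% were called, 326 higher (3.97%) and 296 lower (3.6%). At an unadjusted p under 0.05 there were 27 of the 80. No share of all genes is set beside this or later unadjusted counts, so none is read as an excess. The log2 difference was above 0 for 76 of the 80 genes, with a median of 0.61, against 4406 of 8218 genes and a median of 0.05 over the table. Every one of the 35 complex I genes had a log2 difference above 0, down to 0.01 for Ndufb7. The medians were 0.61 for complex I, 0.30 for complex II, 0.78 for complex III, 0.54 for complex IV and 0.85 for ATP synthase. With values of no read set to 0, the median was 0.32 over the table and 0.72 over the set. For genes with a mean value of at least 10 the table stood at 0.23 and the set at 0.66. With library medians set equal they stood at -0.07 and 0.49.

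In complex I, 3 of 35 genes were called. Ndufb10, an accessory subunit of the membrane arm, ranged from 17.0 to 38.9 with a median of 24.3 in the 8 monocyte libraries. In microglia it was 11.98 and 10.9 at 16 h, 2.22 and 34.5 at day 1, 3.52 and no read at day 3, and no read and 4.15 at day 7. A single day 1 microglia library thus reached the monocyte range and the other 7 stayed below it. The log2 difference was 2.12 ± 0.50 (SE; means 25.7 ± 6.93 and 8.66 ± 11.3, SD, n = 8 each; limma adjusted p = 0.0071). Ndufs6, a zinc-binding accessory subunit of the peripheral arm, was at 10.96 to 29.3 in monocytes (median 13.5), above all 8 microglia libraries of the shared times, where the highest was 10.01 and 3 had no read. Its log2 difference was 2.01 ± 0.55 (SE, limma adjusted p = 0.020). Among the 3 time 0 microglia libraries, which did not enter this comparison, 2 stood at 23.2 and 11.3, inside the monocyte range. Ndufb2 was higher by 1.57 ± 0.46 (SE, limma adjusted p = 0.032), with 7.15 to 19.5 in monocytes and a day 3 microglia library as high as 24.1. The iron-sulfur core subunit Ndufs1 (log2 0.54, limma adjusted p = 0.53) and Ndufv3, an accessory subunit of the NADH-oxidising module (log2 0.59, limma adjusted p = 0.40) did not pass.

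No gene of complex II was called. The log2 differences were 0.84 for Sdha, the flavoprotein that oxidises succinate, 0.20 for the iron-sulfur subunit Sdhb, and 0.40 and -0.16 for the membrane anchors Sdhc and Sdhd (limma adjusted p from 0.35 to 0.87). In complex III, 1 of 9 genes was called: Uqcrfs1, the Rieske iron-sulfur protein, with 21.01 to 40.8 in monocytes (median 30.2). In microglia it was 19.0 and 10.9 at 16 h, 5.56 and 11.5 at day 1, 10.6 and no read at day 3, and 33.8 and 16.6 at day 7, so that only a day 7 library overlapped (2.83-fold on the scale of value + 1, log2 SE 0.44, limma adjusted p = 0.031). Cyc1, the cytochrome that hands electrons on to cytochrome c, stood at 22.1 ± 5.78 and 19.8 ± 20.15 (SD, n = 8 each; limma adjusted p = 0.36), while the core subunit Uqcrc1 was nearly level, at 17.2 ± 3.91 and 17.3 ± 6.40 (SD, n = 8 each; limma adjusted p = 0.94). Cycs, cytochrome c itself, was at 6.36 ± 2.06 and 4.08 ± 4.38 (SD, n = 8 each; limma adjusted p = 0.28).

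In complex IV, 1 of 13 genes was called. Cox4i1, the widely expressed isoform of subunit IV, lay at 94.8 to 165 in monocytes (median 123) and at 30.1 to 111 at the shared times in microglia, with 2 of the 8 monocyte libraries below the highest microglia library (log2 0.81 ± 0.23, SE, limma adjusted p = 0.027). Ndufa4, once counted with complex I and now placed in complex IV, had 4.97 to 15.3 in monocytes and no read in 7 of 13 microglia libraries, a log2 difference of 1.26 that was not called (limma adjusted p = 0.071). The widely expressed isoforms Cox6a1 (153 ± 27.8 and 118 ± 31.0, SD, n = 8 each; limma adjusted p = 0.20) and Cox7a2 (10.51 ± 5.10 and 10.2 ± 9.77; limma adjusted p = 0.54) and the subunit Cox5a (37.9 ± 12.2 and 25.7 ± 10.2; limma adjusted p = 0.46) did not pass. Cox6b2, the testis isoform of Cox6b, had the lowest log2 difference, -0.84 (limma adjusted p = 0.18). In ATP synthase, 3 of 15 genes were called. Atp5a1, which forms the catalytic head with Atp5b, was at 69.3 ± 22.3 and 39.5 ± 18.7 (SD, n = 8 each) and not called (limma adjusted p = 0.23). Atp5b, the catalytic beta subunit, was at 45.4 to 124 in monocytes (median 109) and 26.3 to 76.2 in microglia. Only the day 7 monocytes, at 65.9 and 45.4, fell into the microglia range, and the log2 difference was 0.98 ± 0.25 (SE, limma adjusted p = 0.014). Atp5d, the delta subunit of the rotor stalk, was at 65.3 to 115 against 24.9 to 77.4 at the shared times (log2 0.99 ± 0.25, SE, limma adjusted p = 0.013). Atp5g1, one of the genes for the membrane ring subunit c, was at 17.6 to 24.9 in monocytes, above the highest of the 8 microglia libraries at 14.9 (log2 1.55 ± 0.46, SE, limma adjusted p = 0.036), and it is one of the genes at fractions of a read. Over the table, 83 genes (1.01%) were higher in monocytes without overlap, and in this set 3 of 80 were: Ndufs6, Atp5g1 and Atp5g2. Taking all 13 microglia libraries, none of the 80 stood apart (table: 1.06% in either direction).

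The number of calls depended on which libraries entered. It was 0 with 16 h and day 1 only, 1 with day 3 and day 7 only and 1 without the 4 libraries above 0.1% erythroid RNA (microglia 1 h replicate 1, 16 h replicate 2 and day 1 replicate 2, and monocytes day 1 replicate 1), the latter 2 being Ndufb10 each time. It was 3 without monocytes 16 h replicate 2, day 1 replicate 1 or either day 3 replicate, 4 without microglia 16 h replicate 2, and 5 without monocytes 16 h replicate 1, day 1 replicate 2 or either day 7 replicate, and Ndufb10 and Atp5d kept their call without any single library.

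**Figure D2:**
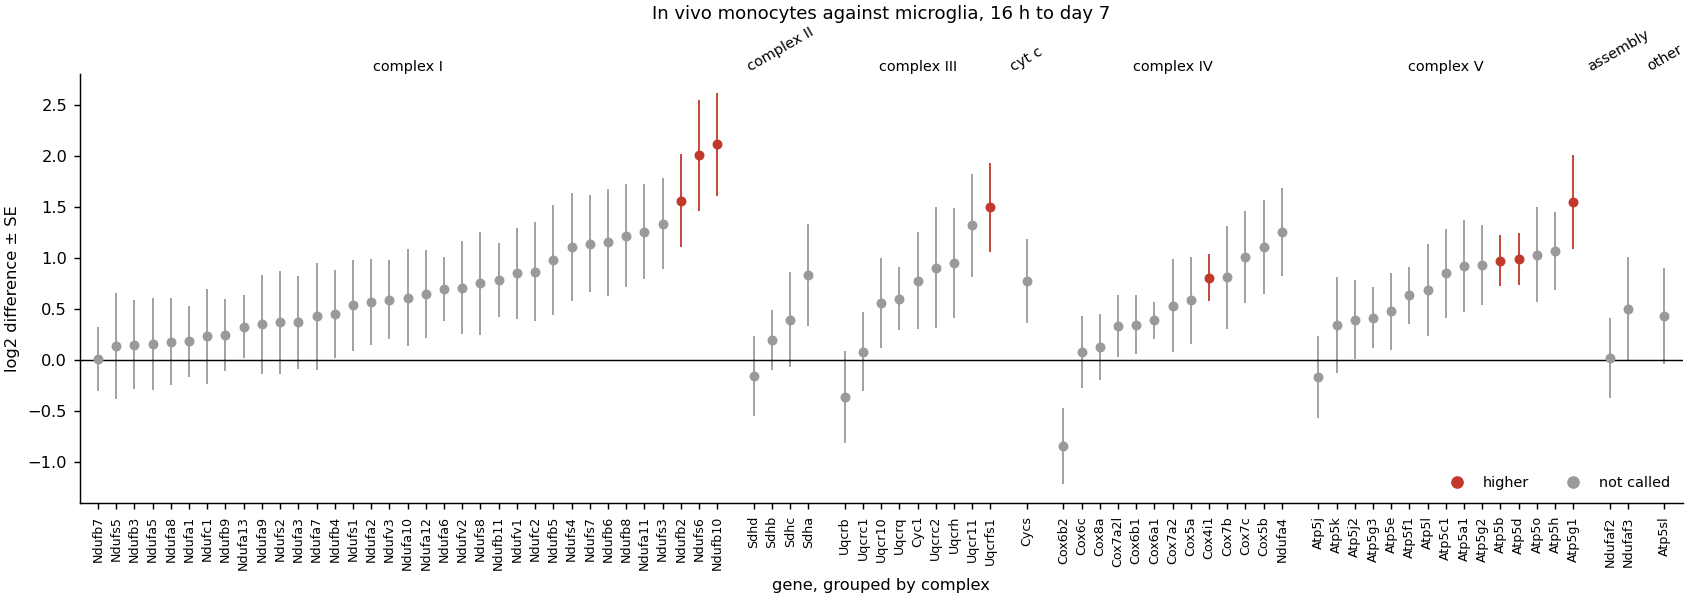
Log2 difference between monocytes and microglia over the 4 shared times for each of the 80 genes, grouped by complex; points are limma estimates, bars are standard errors and red marks genes at an adjusted p under 0.05. Nearly all points lie above 0 (76 of 80), and 8 are called.

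**Figure D3:**
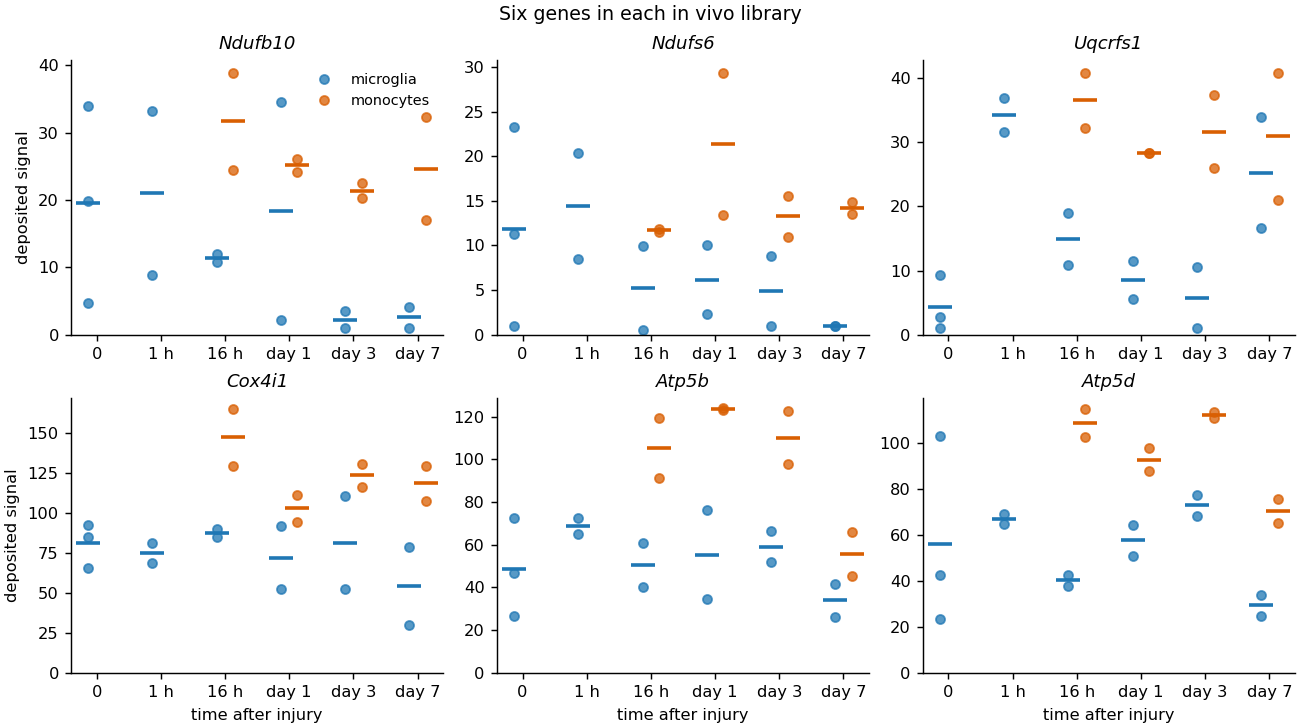
Deposited signal of 6 of the called genes in each in vivo library against time after injury; points are libraries, short lines are group means, and a signal of 1 means no read. Monocytes lie above most microglia libraries for each gene, with some microglia libraries reaching the monocyte range, as for Ndufb10 at 34.0 at time 0 and 34.5 at day 1.

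Over injury time no gene of the set was called in microglia. At 1 h against time 0, 0 of 80 genes passed (table: 0.073%), with 3 at an unadjusted p under 0.05. These were Uqcrfs1, at 31.5 and 36.9 at 1 h against 9.34, 2.83 and no read at time 0 (limma adjusted p = 0.18), Ndufa4, at 7.25 and 17.8 against no read in all 3 (limma adjusted p = 0.27), and Uqcrb, one of the genes at fractions of a read (limma adjusted p = 0.31). All 3 had no overlap between the times, as 10.3% of all genes did in that direction. At 16 h and day 1 against time 0 again 0 of 80 passed (table: 1.52%), with 10 at an unadjusted p under 0.05 and a median log2 change of 0.09. The lowest p values were those of the complex I subunit Ndufa13 (109.7 ± 56.3 at time 0, SD, n = 3, and 39.0 ± 18.8, SD, n = 4; limma adjusted p = 0.13), of Cyc1 (5.66 ± 4.26 and 21.5 ± 11.98; limma adjusted p = 0.21) and of the ATP synthase alpha subunit Atp5a1 (22.6 ± 19.0 and 41.6 ± 12.8; limma adjusted p = 0.26). At day 3 and day 7 against time 0, 0 of 80 passed (table: 0.0122%), with 7 at an unadjusted p under 0.05. Ndufb10 was at 19.9, 34.0 and 4.67 at time 0 and at no more than 4.15 in the 4 late libraries, without overlap (table: 1.96% in that direction; limma adjusted p = 0.17). Uqcrb came closest to the threshold (limma adjusted p = 0.060), and Ndufv3 was at 42.7 ± 25.6 and 13.9 ± 13.2 (SD; limma adjusted p = 0.12). With library medians set equal, 7 genes were lower at 16 h and day 1 and 4 at day 3 and day 7. That centring moved the median of all genes from 0.10 to -0.74 and from 0.05 to -0.66, where the medians of the set were -0.75 and -0.74. Leaving out 1 library gave 1 call at 16 h and day 1 (without time 0 replicate 2) and 1 to 3 calls at day 3 and day 7 (without day 3 replicate 1 or either day 7 replicate). Neutrophil markers took 16.0% to 22.2% of the signal at time 0 and 7.83% to 15.0% at 16 h and day 1. In a fit of microglia alone with this share as a covariate, the median change at 16 h and day 1 was 0.44 in the set and 0.21 over all genes.

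In monocytes, none of the 80 genes was called in limma between 16 h and day 1 and day 3 and day 7 (0 called, 0 at an unadjusted p under 0.05; table: 0.84% called), and the median log2 change was -0.04. The lowest p values belonged to the assembly factor Ndufaf2 (limma adjusted p = 0.91), to Uqcrq and to Cox7a2l, a factor of supercomplex assembly also at fractions of a read (29.4 ± 12.1 early and 49.2 ± 9.48 late, SD, n = 4 each; limma adjusted p = 0.93). The complex III subunit Uqcrq was at 54.8 ± 7.17 early and 30.4 ± 5.29 late (SD, n = 4 each; limma adjusted p = 0.92), without overlap (table: 4.71% in that direction). These p-values use a spread per gene shared by monocytes and the shallower microglia libraries, so they do not measure the monocyte SDs alone. In a fit of the monocyte libraries alone, Uqcrq was called (log2 -0.83, limma adjusted p = 0.039). In the same libraries 15 of 16 glycolysis genes had a log2 change below 0, with a median of -0.96, and 2 were called lower (0.73% of all genes), the glucose transporter Slc2a1 (113 to 30.8, log2 -1.86, limma adjusted p = 0.038) and pyruvate kinase Pkm2 (385 to 203, log2 -0.92, limma adjusted p = 0.030). The difference in time course between monocytes and microglia was called for 0 of 80 genes (table: 0.0122%), with 1, Cox6b2, at an unadjusted p under 0.05.

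Genes around the chain were set beside it in the comparison of monocytes with microglia, where 3.97% of all genes were higher and 3.6% lower. Of 10 mitochondrial carriers, 2 were higher in monocytes, the phosphate carrier Slc25a3 (log2 0.96, limma adjusted p = 0.013) and the adenine nucleotide carrier Slc25a5 (log2 1.40, limma adjusted p = 0.011), which feed ATP synthase and export its product. Of 8 antioxidant genes, 3 were higher, Sod2 (log2 1.55, limma adjusted p = 0.030), Txn2 (log2 1.26, limma adjusted p = 0.046) and Gpx1 (log2 0.53, limma adjusted p = 0.036). Of 16 citric acid cycle genes none was higher and 1 was lower: Irg1, which makes itaconate, at 3.15 in monocytes and 29.8 in microglia (log2 -1.55, limma adjusted p = 0.033). Of 58 mitochondrial ribosome genes 4 were higher, a share not far from that of the table, with a median log2 of 0.33. Of 16 glycolysis genes 2 were lower, Hk3 (log2 -1.63, limma adjusted p = 0.00018) and Gpi1 (log2 -0.85, limma adjusted p = 0.0094), and 10 of the 16 had a log2 above 0. Of 9 regulators of mitochondrial genes and their response to oxygen, 1 was higher, Hif1a (29.9 against 8.02, log2 2.10, limma adjusted p = 0.0082), and of 10 other assembly factors 1 was, Cox19 (log2 1.39, limma adjusted p = 0.040).

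Cultured macrophages and microglia were compared at 0 h, where single subunits stood higher in one cell type or the other. Of 86 genes, 50 were called, 21 higher and 29 lower in macrophages, against 51.1% of all 12335 genes (21.5% higher, 29.6% lower), so the share called was near that of the table. The median log2 difference was -0.08, against -0.13 for all genes. Every complex held genes higher and genes lower in macrophages: 7 and 15 of 36 in complex I, 2 and 1 of 4 in complex II, 2 and 2 of 9 in complex III, 5 and 5 of 14 in complex IV, and 5 and 5 of 15 in ATP synthase. With library medians set equal the split was 29 higher and 15 lower, and with quantile normalization 10 and 38, so that the directions of small differences depend on the scaling.

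The log2 difference farthest from 0 was in complex IV. Ndufa4 was at 167 and 209 in macrophages and at 537 and 620 in microglia at 0 h, a log2 difference of -1.62 ± 0.11 (SE, limma adjusted p = 1.3e-10). Over all times macrophages stayed between 167 and 300.02 (n = 11) and microglia between 512 and 650 (n = 12). Cox6c, a small nuclear subunit of the same complex, was at 348 ± 44.9 and 634 ± 6.01 (SD, n = 2 each; log2 -0.87, limma adjusted p = 3.7e-08). Cox6a1, the widely expressed isoform of subunit VIa, was at 1327 ± 89.1 and 891 ± 44.2 (SD, n = 2 each; log2 0.57, limma adjusted p = 2.4e-07), and Cox7a2, the widely expressed isoform of subunit VIIa, at 746 ± 37.3 and 537 ± 7.85 (SD, n = 2 each; log2 0.47, limma adjusted p = 1.4e-05). The isoforms known from heart and muscle were low in both cell types. Cox7a1 was at 21.9 to 53.4 in the 11 macrophage libraries and 1.76 to 10.2 in the 12 microglia libraries, without overlap, although at 0 h alone it was not called (limma adjusted p = 0.058). Cox6a2 was at 4.37 to 15.9 in microglia and at 0.972 to 9.79 in macrophages, with no read in 4 of 11 (limma adjusted p at 0 h = 0.70).

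In ATP synthase, Atp5g1 and Atp5o were higher in macrophages and Atp5j and Atp5b lower. Atp5g1, whose values are held as uncertain, was at 330 and 337 in macrophages and 148 and 145 in microglia at 0 h (log2 1.18, limma adjusted p = 5.8e-08). Atp5o, the subunit that joins the peripheral stalk to the catalytic head, was at 823 ± 24.6 and 493 ± 17.7 (SD, n = 2 each; log2 0.74, limma adjusted p = 9.7e-07), and Atp5j, another part of the peripheral stalk, at 263 ± 8.39 and 479 ± 3.08 (log2 -0.86, limma adjusted p = 7.7e-07). Atp5b was at 1100 ± 22.7 and 1423 ± 62.7 (log2 -0.37, limma adjusted p = 6.7e-06). In complex I the lowest p values belonged to accessory subunits that were lower in macrophages: Ndufa6 (272 ± 39.5 and 486 ± 16.9, log2 -0.84, limma adjusted p = 5.1e-07), Ndufb2 (139 ± 22.0 and 311 ± 58.8, log2 -1.16, limma adjusted p = 7.2e-07) and Ndufb6 (log2 -0.87). Ndufs6 (332 ± 24.9 and 214 ± 27.0, log2 0.63, limma adjusted p = 0.00012) and Ndufv3 (305 ± 1.51 and 213 ± 62.4, log2 0.54, limma adjusted p = 0.0038) were among the 7 that were higher. In complex II the iron-sulfur subunit Sdhb (log2 0.55) and the anchor Sdhc (log2 0.45) were higher and the flavoprotein Sdha (log2 -0.29, limma adjusted p = 0.0495) lower, while Sdhd was not called. In complex III, Cyc1 (log2 0.43) and Uqcr11 (log2 0.34) were higher and Uqcrfs1 (log2 -0.47) and Uqcrq (log2 -0.28) lower. The complex III core subunit Uqcrc1 was at 405 ± 43.8 and 422 ± 21.7 (SD, n = 2 each; limma adjusted p = 0.62). Among the assembly factors, Ndufaf4 was lower in macrophages (8.66 ± 0.125 and 22.5 ± 1.01, log2 -1.28, limma adjusted p = 0.021). Cycs stood at 171 ± 3.81 and 155 ± 1.65 (SD, n = 2 each; limma adjusted p = 0.35).

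Over all 23 libraries, 31 of the 86 genes, among them Cox7a1 and Atp5l that were not called at 0 h, had macrophages and microglia without overlap, 15 higher and 16 lower in macrophages, a share near that of the table, 31.7% (12.9% higher, 18.7% lower). The 8 genes called in the cord did not share a direction in culture at 0 h: Ndufs6, Atp5d and Atp5g1 were also higher in macrophages, Atp5b, Cox4i1, Uqcrfs1 and Ndufb2 were lower, and Ndufb10 was not called. With library medians set equal the log2 difference of Cox4i1 turned from -0.18 to 0.00066. Beside the chain at 0 h, where 21.5% of all genes were higher and 29.6% lower, 12 of 16 glycolysis genes were higher in macrophages and 1 lower, with a median log2 of 0.70. Tpi1 (log2 1.36), Ldha (log2 1.08) and Pkm2 (log2 0.60) had the lowest p values. Of 9 antioxidant genes 5 were higher and 1 lower, led by Gpx1 (2340 against 448, log2 2.38, limma adjusted p = 3.2e-17), and of 76 mitochondrial ribosome genes 22 were higher and 9 lower.

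**Figure D4:**
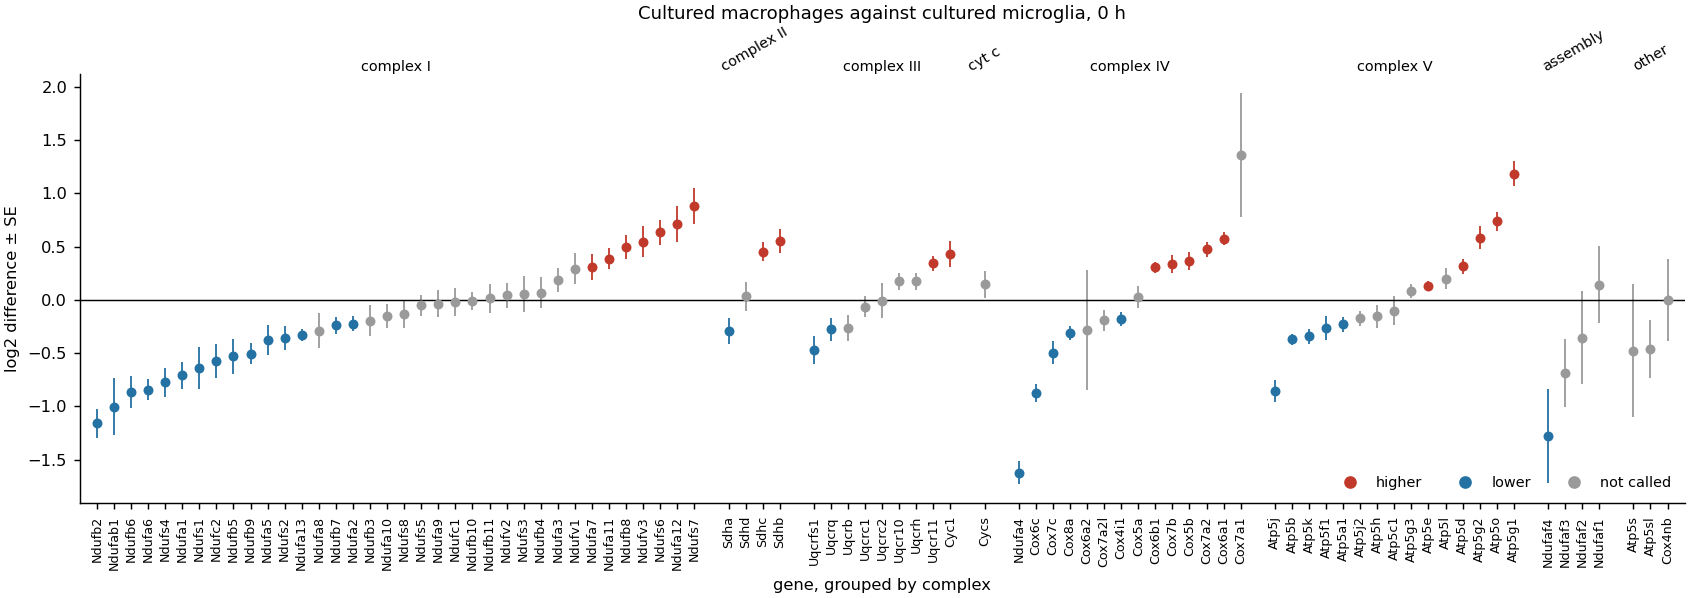
Log2 difference between cultured macrophages and cultured microglia at 0 h for each of the 86 genes, grouped by complex; points are limma estimates, bars are standard errors, red marks genes higher and blue genes lower in macrophages at an adjusted p under 0.05. Each of the 5 complexes holds both colours, and Ndufa4 has the lowest value at -1.62.

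During TGFb1 treatment a small number of the genes was called in macrophages, at shares below those of the table when both directions are counted together. At 1 h, 1 of 86 genes was called in macrophages (table: 3.01%, of which 2.08% higher and 0.932% lower): Ndufa4 rose from 167 and 209 to 258 and 239 (log2 0.41 ± 0.11, SE, limma adjusted p = 0.042). Next came Ndufb6 (100.5 ± 14.0 to 143 ± 25.5, SD, n = 2 each; limma adjusted p = 0.086) and Cox4i1 (1505 ± 174 to 1712 ± 9.83; limma adjusted p = 0.16), which were not called. The call of Ndufa4 ended when macrophage 0 h replicate 1 or either 1 h replicate was left out. At 3 and 6 h, 3 of 86 were called (table: 13.2%), 2 higher (table: 6.8%) and 1 lower (table: 6.44%). Ndufa4 stood at 254, 252 and 300.02 (log2 0.56 ± 0.10, SE, limma adjusted p = 0.00062), above both 0 h libraries, and kept its call under all 18 alternatives tried. Cox5a, subunit Va of complex IV, rose from 351 and 375 to 416, 490 and 469 (log2 0.34 ± 0.10, SE, limma adjusted p = 0.026). Atp5k, subunit e of ATP synthase, fell from 556 and 606 to 528, 558 and 458 (log2 -0.22 ± 0.06, SE, limma adjusted p = 0.026), with overlap between 0 h and 3 h. Without macrophage 0 h replicate 2 only Ndufa4 was called. With equal library totals or quantile normalization the split was 1 higher and 1 lower.

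At 16 and 20 h, 10 of 86 genes were called in macrophages (table: 12.3%), 3 higher (table: 6.32%) and 7 lower (table: 5.94%), and the median of the set was -0.03. The split depended on the scaling, with 0 higher and 10 lower when library medians were centred, 5 and 5 with equal library totals and 3 and 3 with quantile normalization. The changes were small. Ndufa7, an accessory subunit of complex I, fell from 690 and 621 to 361, 541, 432 and 473 (log2 -0.55 ± 0.11, SE, limma adjusted p = 0.0013), and Ndufb2 of the same complex rose from 139 ± 22.0 to 183 ± 8.29 (SD, n = 2 and n = 4; limma adjusted p = 0.029). Cycs fell from 169 and 174 to 167 and 139 at 16 h and 112 and 91.5 at 20 h (log2 -0.46 ± 0.11, SE, limma adjusted p = 0.0067). The single 6 h library was the highest of all at 239, and the values of Cycs are held as uncertain. In complex II Sdhc fell (731 ± 12.6 to 594 ± 42.0, log2 -0.30, limma adjusted p = 0.011), and in complex III Uqcrb (423 ± 22.1 to 331 ± 28.3, log2 -0.36, limma adjusted p = 0.027). Uqcrb is likewise held as uncertain. In complex IV Cox6a1 fell from 1390 and 1264 to 1174, 1227, 1111 and 1092 (log2 -0.21 ± 0.05, SE, limma adjusted p = 0.016) and Cox7b by 0.23 on the log2 scale (limma adjusted p = 0.046), while Cox5a was higher (log2 0.33, limma adjusted p = 0.019), at 524 and 497 at 16 h and 420 and 400 at 20 h. Ndufa4 was then at 256, 229, 210 and 214 and no longer called (log2 0.28, limma adjusted p = 0.056). Atp5k was lower (log2 -0.24, limma adjusted p = 0.0098), and Atp5sl, which is no subunit, higher (log2 0.76, limma adjusted p = 0.040). With either 0 h replicate left out 6 genes were called, and in a fit of the macrophage libraries alone 1 was, Ndufv3, which is none of the 10.

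In microglia 0 of 86 genes were called at 1 h (table: 0.34%), at 3 and 6 h (table: 1.16%) or at 16 and 20 h (table: 3.01%) in the limma fit, with 1, 4 and 5 at an unadjusted p under 0.05. At 1 h the lowest p values were those of Atp5g1 (146 ± 1.99 at 0 h and 180 ± 25.4, SD, n = 2 each; limma adjusted p = 0.71), Atp5f1 and Atp5k, and at 3 and 6 h those of Atp5k (737 ± 33.7 at 0 h, n = 2, and 658 ± 31.0, n = 4; limma adjusted p = 0.31), Ndufb10 (359 ± 13.7 and 315 ± 10.7; limma adjusted p = 0.44) and Ndufa10 (250 ± 13.2 and 288 ± 2.49; limma adjusted p = 0.61). Late, the complex I subunit Ndufa11 came nearest, at 226 and 192 at 0 h and 260, 264, 259 and 256 late (log2 0.32, limma adjusted p = 0.057), without overlap (table: 13.4% in that direction). Uqcrh, the hinge protein of complex III, was at 704 ± 11.8 and 815 ± 38.6 (SD, n = 2 and n = 4; limma adjusted p = 0.15). The fit of microglia alone called both, and array weights also gave 2 calls. Ndufa4 was at 609 ± 44.7 late and 578 ± 58.3 at 0 h (SD, n = 4 and n = 2; limma adjusted p = 0.90). A direct test of whether the late change differed between the cell types was called for 2 of 86 genes (table: 4.38%), both lower in macrophages (table: 1.89%): Cox6a1 (-0.29 ± 0.08, SE, limma adjusted p = 0.036) and Ndufa7 (-0.54 ± 0.15, SE, limma adjusted p = 0.049). In microglia Cox6a1 was at 922 and 860 at 0 h and at 930 to 977 late, and Ndufa7 at 542 and 518 and at 512 to 549. For Cycs (-0.47, limma adjusted p = 0.096), Atp5k (-0.26, limma adjusted p = 0.094) and Cox5a the difference was not called. The 2 calls became 0 without macrophage 0 h replicate 1, microglia 16 h replicate 1 or either microglia 20 h replicate, and 1 without macrophage 0 h replicate 2 or microglia 16 h replicate 2. Without microglia 0 h replicate 2 there was 1 call, of a gene higher in macrophages and thus neither of these. Titles of the cultured microglia carry no replicate letter, so their replicate numbers follow the order of the samples. At 16 h, replicate 1 is the library whose data column is lettered b and replicate 2 the one lettered a.

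**Figure D5:**
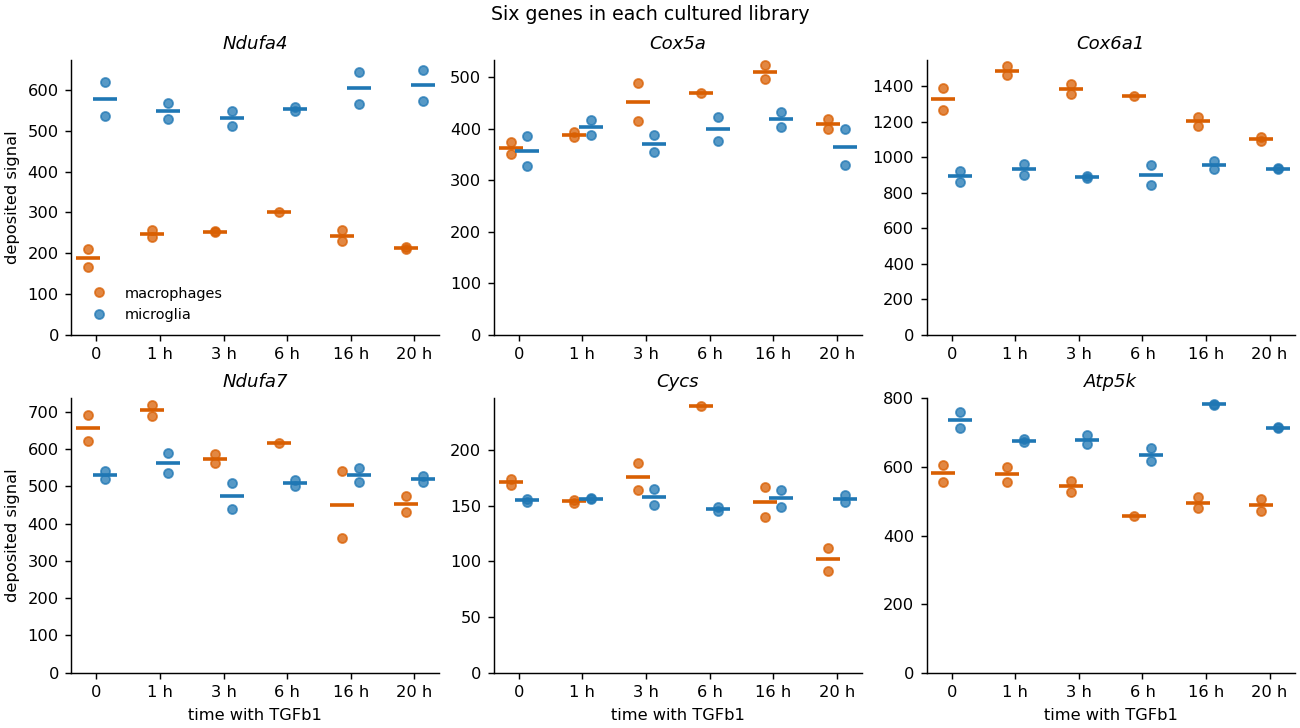
Deposited signal of 6 genes in each cultured library against time with TGFb1; points are libraries and short lines are group means, with a single macrophage library at 6 h. Ndufa4 is lower in macrophages at all times (167 to 300.02 against 512 to 650), and Cox6a1 is higher at all times but falls to 1111 and 1092 at 20 h.

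Genes around the chain were followed in the same fit. In macrophages at 16 and 20 h, where 6.32% of all genes were higher and 5.94% lower, 7 of 16 glycolysis genes were higher and 1 lower, among them Eno1 (629 to 882, log2 0.49, limma adjusted p = 0.00012), Slc2a1 (94.2 to 150, log2 0.62, limma adjusted p = 0.00049) and Gpi1 (514 to 677, log2 0.39, limma adjusted p = 0.0012), while the hexokinase Hk3 fell (645 to 304, log2 -1.08, limma adjusted p = 2.3e-06). Slc2a1 had been called from 1 h on (94.2 to 263, log2 1.47, limma adjusted p = 2.1e-07). No gene of the citric acid cycle list (0 of 18) was called late, and of 10 carriers 1 was higher, Ucp2 (1284 to 1644, log2 0.35, limma adjusted p = 3.2e-05), and 3 lower: Atpif1, which inhibits ATP synthase running backwards (694 to 538, log2 -0.37, limma adjusted p = 0.00095), Slc25a11 and Vdac2. Of 9 antioxidant genes 2 were higher and 1 lower, and the peroxiredoxin Prdx5 had the lowest p (496 to 860, log2 0.79, limma adjusted p = 1.0e-07). Of 14 regulators 2 were higher at 3 and 6 h (table: 6.8%), Hif1a (120 to 225, log2 0.95, limma adjusted p = 3.3e-05) and Myc (30.9 to 75.4, log2 1.21, limma adjusted p = 0.021), and 1 lower late, Myc (16.3, log2 -1.28, limma adjusted p = 0.0090). In microglia late (table: 3.01%), the same lists held 1 call each for glycolysis (Hk3, log2 -0.46, limma adjusted p = 0.041) and antioxidant genes (Gpx4, log2 0.24, limma adjusted p = 0.047), and none for the citric acid cycle, carriers or regulators. The late change differed between the cell types for 4 of 16 glycolysis genes (table: 4.38%), 3 of them (Pkm2, Eno1 and Slc2a1) higher in macrophages and Hk3 lower.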

How the data were processed

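RNA sequencing of sorted and cultured mouse cells was analysed in 44 libraries of 22 groups. The authors deposited 2 tables of a signal scaled per library, in which 1 stands for no read. TopHat and mm9 are named in the submitters' processing notes, and no source used here names the scaling method. Of values up to 20 reads, 86.6% to 90.7% per library were whole multiples of the value of 1 read (tolerance 0.05 reads), which gave the depth but too few whole reads for a count test, so limma, the planned test for values that are not whole counts, was used.

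limma 3.58.1 in R 4.3.3 was run on log2(signal + 1), with 1 coefficient per group over all groups of a table and the trend and robust options. P-values were Benjamini-Hochberg adjusted over all genes and called under 0.05. The filter, 2 libraries at 1 or higher, removed no gene. The script was tested on simulated data. The line without a gene name held 0.00895% to 0.0165% of the in vivo signal and was left out. A 1 h microglia library carries a time tag of 2 h, and its title was followed. The genes and lists were chosen with earlier results of these data known. Up to 12 called genes per comparison were named, otherwise up to 3 per complex by lowest p, plus a fixed list of subunits. Motifs were searched in RefSeq promoters of GRCm38.p6, taking the first promoter listed for each gene. Alternatives covered the pseudocount, filter, scaling, variance model, replicate block, neutrophil marker share as a covariate (microglia against time 0) and each library left out.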

Additional observations from a re-analysis of the deposited data

Results flagged for a closer look

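For 2 genes the late response to TGFb1 differed between the cultured cell types in a direct test of the difference. For Cox6a1, of complex IV, the log2 change in macrophages minus that in microglia was -0.29 (limma adjusted p = 0.036). All 4 late macrophage libraries lay below both 0 h libraries, and all 4 late microglia libraries lay above both of theirs. For Ndufa7, of complex I, the difference was -0.54 (limma adjusted p = 0.049), with 4 of 4 late macrophage libraries below both 0 h libraries and microglia overlapping. Both calls depended on single libraries, as given with the result.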

How the results depend on the processing

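Numbers of called respiratory chain genes moved with the setting as follows, and the cause was not tested. For monocytes against microglia (8) the count was 13 with equal library totals, 4 with library medians centred, 1 without the 4 libraries with erythroid RNA, 0 with 16 h and day 1 only (0 also with the placeholder set to 0) and 1 with day 3 and day 7 only. Restrictions to fewer libraries also leave fewer samples. In microglia against time 0 (0), centred medians gave 7 at 16 h and day 1 and 4 at day 3 and day 7, and variances without the trend and robust options gave 1 at the late times. Monocytes late against early (0) gave 3 with array weights and 1, Uqcrq, in monocytes alone. Macrophages at 1 h (1) gave 0 with equal totals, quantile normalization, no trend and robust options, array weights or totals without the top 50 genes. Macrophages at 3 and 6 h (3) gave 1 without trend and robust options and 1 with array weights. Macrophages late (10) gave 6 with quantile normalization, 3 without trend and robust options, 4 with array weights and 1 alone. Microglia late (0) gave 1 with quantile normalization, 2 with array weights and 2 alone. The late difference between cell types (2) gave 1 with pseudocount 0, quantile normalization or array weights, and 0 with equal totals, no trend and robust options or totals without the top 50 genes. The summed ratio in culture (0.940) was 0.901 of totals without the top 50 genes. The Cox4i1 difference at 0 h (-0.18) was 0.00066 with centred medians (adjusted p = 0.99).

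Leaving out 1 library gave 3 to 10 calls for monocytes against microglia, 0 to 0 for microglia at 1 h, 0 to 1 at 16 h and day 1 and 0 to 3 at day 3 and day 7, 0 to 0 for monocytes late and for the difference in time course, 0 to 3, 1 to 4 and 6 to 11 for macrophages at the 3 TGFb1 times, 0 to 0 for microglia at each, 0 to 2 for the late difference and 36 to 43 at 0 h (50). Where this left a group with 1 library, that library was assumed to vary like the others. With the replicate number as a block, monocytes against microglia gave 9 calls, macrophages late 11 and culture at 0 h 48. Differences of replicate 1 minus replicate 2 correlated across genes between groups of a cell type at -0.025 to 0.065. Cultured microglia were not included. Counting noise in shallow libraries can also hold such values low, so whether the numbers pair the libraries was not decided. Of single-gene values, 963 in vivo and 1504 in culture stayed on their side of the threshold under the alternatives. Calls were lost for 88 and 136 and gained for 18 and 36, and 1 value in culture changed sign while called in at least 1 of the 2 fits. Sign changes of values called in neither fit were not counted. The shallow microglia libraries limit genes of low signal most.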

Other observations

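AA467197 (RefSeq synonym Nmes1), on chromosome 2, is outside the symbols described above and was chosen after its values were seen. It encodes a small NDUFA4-like protein, whose human counterpart is known to take the place of NDUFA4 in complex IV. In culture it was at 258 to 414 in the 11 macrophage libraries and at 2.47 to 11.8 in the 12 microglia libraries, an order opposite to that of Ndufa4. At 0 h its log2 difference was 5.88 (macrophages higher, limma adjusted p = 2.4e-13, no overlap). In microglia it rose at 3 and 6 h (log2 1.05, limma adjusted p = 0.015) and stood higher at 16 and 20 h (log2 0.94, limma adjusted p = 0.018), in 4 of 4 libraries each time. In macrophages the late change was 0.60 and not called (limma adjusted p = 0.078). There too 4 of 4 late libraries, at 381 to 414, lay above both 0 h libraries, at 258 and 270.

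In monocytes of the injured cord AA467197 stood at 42.8 and 58.2 at 16 h, 135 and 93.7 at day 1, 32.3 and 30.6 at day 3 and 8.50 and 6.75 at day 7. The 4 late libraries lay below the 4 early ones (log2 -2.19, limma adjusted p = 0.030). Monocytes and microglia overlapped (log2 0.14, limma adjusted p = 0.87).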
